A study of Mus musculus with 4 samples.

Results

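S100a8 and S100a9 encode the 2 subunits of calprotectin, and their transcripts were followed in 2 gene expression libraries of CD45+ cells from mouse mammary tumours. Both genes were taken by name, and they are 2 of the 11407 genes with values in the deposited tables. At least 1 transcript of either gene was counted in 11678 of 12979 cells of the IL-12 library and in 4221 of 4232 cells of the control library. The IL-12 group received a plasmid for interleukin-12, a cytokine that activates T and natural killer cells, by injection into the tumour followed by electroporation. By the sample labels, the control group received a control plasmid in the same way, so both groups share the injection and the electroporation. A column deposited with the control cells carries the label Isotype instead, and the sample labels were followed. Each group was 1 pool of cells from 3 mice and gave 1 library of transcript 5′ ends, so no comparison between the groups has a replicate check. The labels describe the tumours in different ways: the growth protocol has HER2 induced in mammary tissue at 1 month of age, the design text speaks of triple-negative tumours and the library names carry 4T1. Strain, sex and the promoter that drives HER2 are not given in the sources used here.

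Calprotectin is a calcium-, zinc- and manganese-binding dimer that neutrophils store in bulk in their cytosol. It starves microbes of metals inside and outside the cell. Released calprotectin acts on TLR4 and on the receptor RAGE as an alarm signal, and in tumours both subunits are widely used as marks of neutrophils and of myeloid cells that suppress T cells. Monocytes make both subunits at lower levels, while T and B lymphocytes are not known as makers. S100A8 protein is unstable without S100A9, and the genes sit side by side in a cluster of S100 genes.

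S100a8 lies on the plus strand at chr3:90669071-90670034 and S100a9 on the minus strand at chr3:90692630-90695721 in RefSeq on GRCm38.p6, with 22595 bases and 0 other RefSeq genes between them. The 250 bases before each transcription start are shown because the levels of both genes ran together over all cell groups below. They are RefSeq sequences on GRCm38.p6, written in the direction of each gene, from chr3:90668821-90669070 for S100a8 and from chr3:90695722-90695971 on the minus strand for S100a9. Capitals mark matches on either strand to a TATA box (TATAAA), the core bound by C/EBP factors (TTNCNNAA) and the core bound by PU.1 (GAGGAA); both factor families act in the granulocyte lineage.
S100a8: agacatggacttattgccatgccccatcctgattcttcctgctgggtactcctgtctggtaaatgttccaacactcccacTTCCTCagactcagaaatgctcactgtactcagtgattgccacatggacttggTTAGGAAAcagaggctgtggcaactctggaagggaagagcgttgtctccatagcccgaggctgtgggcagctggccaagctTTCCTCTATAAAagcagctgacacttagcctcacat
S100a9: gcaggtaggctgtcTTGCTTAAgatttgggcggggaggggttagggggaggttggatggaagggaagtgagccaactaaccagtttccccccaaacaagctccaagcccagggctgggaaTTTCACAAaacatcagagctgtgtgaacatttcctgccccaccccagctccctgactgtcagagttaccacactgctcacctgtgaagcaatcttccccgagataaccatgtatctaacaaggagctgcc
In the S100a8 window, TATAAA began 30 bases before the start, next to a PU.1 core on the opposite strand that began 36 bases before it. A further PU.1 core lay 170 bases and a C/EBP core 117 bases before the start, both on the opposite strand. The S100a9 window held 2 C/EBP cores on the strand of the gene, 236 and 130 bases before the start, and neither of the other motifs. No match overlapped another. Among the 32851 promoter windows of this length, 12.4% held TATAAA, 36.8% the C/EBP core and 23.3% the PU.1 core, so each match is common and describes letters only. None of the 635 stretches of 60 bases in S100a8 transcripts, and none of the 506 in S100a9 transcripts, occurred in a transcript of another GENCODE gene, so reads could be assigned to each gene.

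The IL-12 library held 59956933 unique molecular identifiers (UMIs, 1 for each captured transcript molecule), with a median of 3418 per cell, and the control library held 17306854 with a median of 3021. Levels are summed UMIs of a group of cells per 1000000 UMIs of the same cells (CPM). Because this 5′ method counts a molecule once whatever its length, the pair is compared as UMIs. All intervals are 95% intervals of counting error only. The submitters sorted the cells into 14 graph-based clusters and 6 classes. Neutrophils made up 45.5% of IL-12 cells and 64.3% of control cells. Of 23 neutrophil marker genes other than the pair, all had UMIs in neutrophils of both libraries, with a summed level of 37000 CPM in IL-12 and 39669 CPM in control neutrophils. In the same cells the macrophage markers summed to 854 CPM in IL-12 and 734 CPM in control, the T cell markers to 117 CPM in IL-12 and 53.0 CPM in control, and markers of B and of dendritic cells each to under 4 CPM. The libraries shared 87 cell barcodes.

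Neutrophils held most of the S100a8 and S100a9 transcripts of the sorted cells. In neutrophils, S100a8 took 3.75% of all UMIs in the IL-12 library and 5.53% in the control library, and S100a9 took 5.66% in IL-12 and 6.36% in control neutrophils. The neutrophil class held 82.5% of all S100a8 UMIs of the IL-12 library and 94.5% of those of the control library. For S100a9 these shares were 84.2% in IL-12 and 94.7% in control. The remainder in the IL-12 library lay mostly in CD8 T cells, with 11.4% of the S100a8 UMIs, and in macrophages, with 4.60%.

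**Figure D1:**
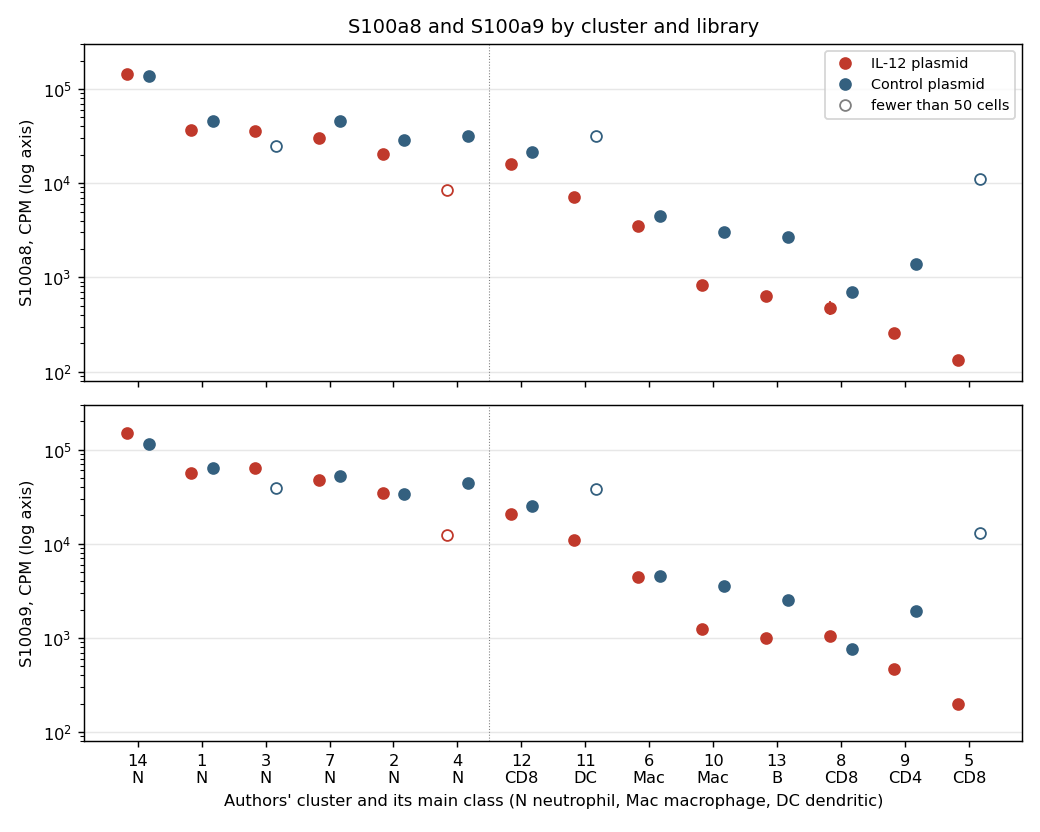
S100a8 (top) and S100a9 (bottom) in CPM on a log axis for the 14 clusters, named by number and main class, with IL-12 to the left of control and open points for groups under 50 cells; bars are counting intervals and are mostly smaller than the points. S100a8 ran from 144884 CPM in IL-12 and 135609 CPM in control cells of cluster 14 to 134 CPM in IL-12 cells of cluster 5.

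Among neutrophils the level of the pair spanned a wide range, with 1 small cluster far above the others. Cluster 14, which held 117 IL-12 and 192 control cells, had 144884 CPM of S100a8 in the IL-12 library and 135609 CPM in the control library. Its S100a9 stood at 148833 CPM in IL-12 and 115523 CPM in control cells. S100a8 alone made up 14.5% of the UMIs of its IL-12 cells and 13.6% of those of its control cells. The genes that led this cluster were Camp, Ngp, Ltf, Ly6g, Cd177 and Lcn2, which encode proteins of the granules and surface that neutrophils make late in the bone marrow, and such clusters rest on expression, which may include that of the pair. Cluster 14 alone held 20.5% of all S100a8 UMIs in the IL-12 library and 34.8% in the control library, although it made up 0.901% of the IL-12 and 4.54% of the control cells.

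The other neutrophil clusters of at least 50 cells lay between 20556 and 36802 CPM of S100a8 in the IL-12 library and between 28490 and 45837 CPM in the control library. In the IL-12 library, S100a8 stood in the order cluster 1 with 36802 CPM, cluster 3 with 36040 CPM, cluster 7 with 30066 CPM and cluster 2 with 20556 CPM. In the control library the order was cluster 1 with 45837 CPM, cluster 7 with 45662 CPM, cluster 4 with 31460 CPM and cluster 2 with 28490 CPM. The intervals of clusters 1 and 7 overlapped in the control library, and no other neighbours in these orders did. Below them, IL-12 levels of S100a8 stood in the order cluster 12 with 15800 CPM, 11 with 7128 CPM, 6 with 3484 CPM, 10 with 821 CPM, 13 with 640 CPM, 8 with 470 CPM, 9 with 259 CPM and 5 with 134 CPM, with the intervals of all neighbours apart. In control cells cluster 12 had 21253 CPM, 6 had 4430 CPM, 10 had 3022 CPM, 13 had 2692 CPM, 9 had 1382 CPM and 8 had 691 CPM, where the intervals of clusters 10 and 13 nearly touched. Cluster 2, led by Hcar2, Ccrl2, Gadd45b and Atf3, a set of genes induced by stress and activation, was the lowest neutrophil cluster of at least 50 cells for S100a8 and for S100a9 in both libraries. For S100a9 the IL-12 order put cluster 3 first with 63451 CPM, before cluster 1 with 55799 CPM, cluster 7 with 46996 CPM and cluster 2 with 34645 CPM. In control cells S100a9 stood at 64371 CPM in cluster 1, 52628 CPM in cluster 7, 43663 CPM in cluster 4 and 33931 CPM in cluster 2. Among the lower clusters of the IL-12 library, the S100a9 interval of cluster 8 overlapped those of clusters 10 and 13, and all other neighbours were apart in both libraries.

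Within neutrophils the pair also varied from cell to cell by far more than counting noise. The median IL-12 neutrophil held 46 S100a8 UMIs and the median control neutrophil 61, while the 10th and 90th percentiles were 3 and 263 in IL-12 and 6 and 425 in control cells. The most loaded 10% of cells held 55.0% of the class's S100a8 UMIs in the IL-12 library and 54.4% in the control library. The richest single cells had 3451 S100a8 UMIs in IL-12 and 3550 in control. Cells rich in 1 subunit were rich in the other: over neutrophils, Spearman's rho between their CPM values was 0.869 in 5908 IL-12 cells and 0.869 in 2721 control cells. Pearson's r of log2(CPM + 1) was 0.686 in IL-12 and 0.806 in control neutrophils. These describe cells of 1 library that share their total UMIs as denominator, and carry no test.

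**Figure D2:**
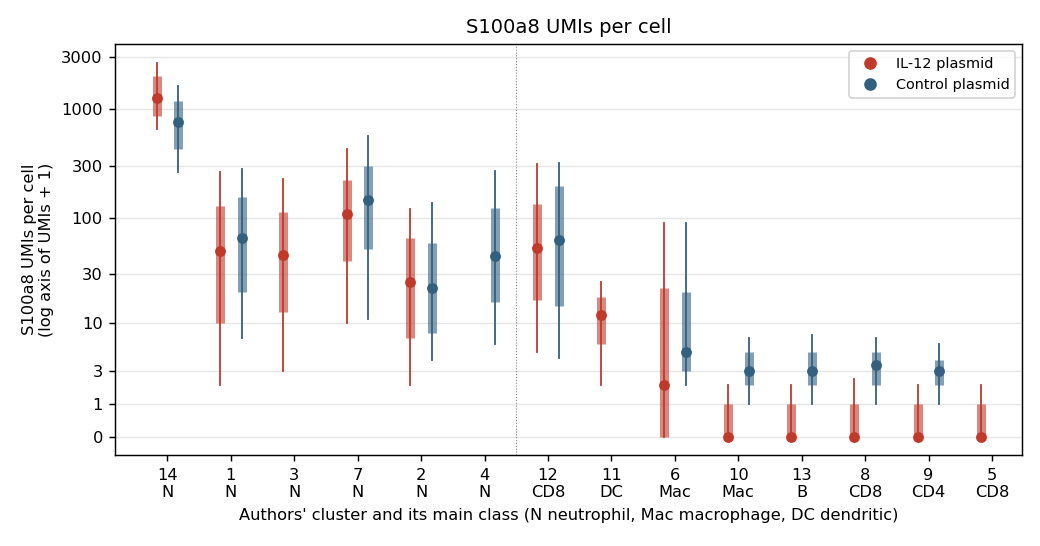
S100a8 UMIs per cell on a log axis of UMIs + 1 for each cluster of at least 50 cells in a library, IL-12 to the left of control: points are medians, thick bars run from the 25th to the 75th percentile and thin lines from the 10th to the 90th percentile. Clusters 10, 13, 8 and 9 have medians of 0 in IL-12 cells and of 3 to 3.5 in control cells.

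Over the 24 combinations of cluster and library with at least 50 cells, the profile most like that of S100a8 among 8632 measured genes was S100a9, and that most like S100a9 was S100a8. Pearson's r of their log2(CPM + 1) was 0.994. The next genes for S100a8 were Stfa2 with 0.979, Wfdc21 with 0.978, Cstdc5 with 0.976 and Stfa2l1 with 0.973. For S100a9 they were Cstdc4 with 0.981, Stfa2l1 with 0.981, Asprv1 with 0.977 and the chemokine receptor gene Cxcr2 with 0.972. Stfa2, Stfa2l1, Cstdc4 and Cstdc5 belong to the stefin A family of cysteine protease inhibitors. Of the genes named, Cxcr2 peaked in control cluster 4, while the pair peaked in IL-12 cluster 14 and the others in control cluster 14. The combinations share libraries and clusters made from the same genes.

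The balance of the subunits differed between groups of neutrophils. There were 0.662 S100a8 UMIs per S100a9 UMI (interval 0.660 to 0.664) in IL-12 neutrophils and 0.870 (0.866 to 0.873) in control neutrophils. Cluster 14 had the highest ratio in each library, 0.973 in IL-12 and 1.17 in control cells. The lowest neutrophil ratio, 0.568, was that of IL-12 cluster 3, whose leading genes include the interferon-induced Isg15 and Rtp4. Among control neutrophil clusters of at least 50 cells the lowest was 0.712 in cluster 1. In each of the 4 neutrophil clusters with at least 50 cells in both libraries, the IL-12 ratio lay under the control ratio with intervals apart: 0.660 and 0.712 in cluster 1, 0.593 and 0.840 in cluster 2, 0.640 and 0.868 in cluster 7, and 0.973 and 1.17 in cluster 14, IL-12 first in each case. S100a8 outnumbered S100a9 in 11.6% of IL-12 neutrophils and in 22.0% of control neutrophils.

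**Figure D3:**
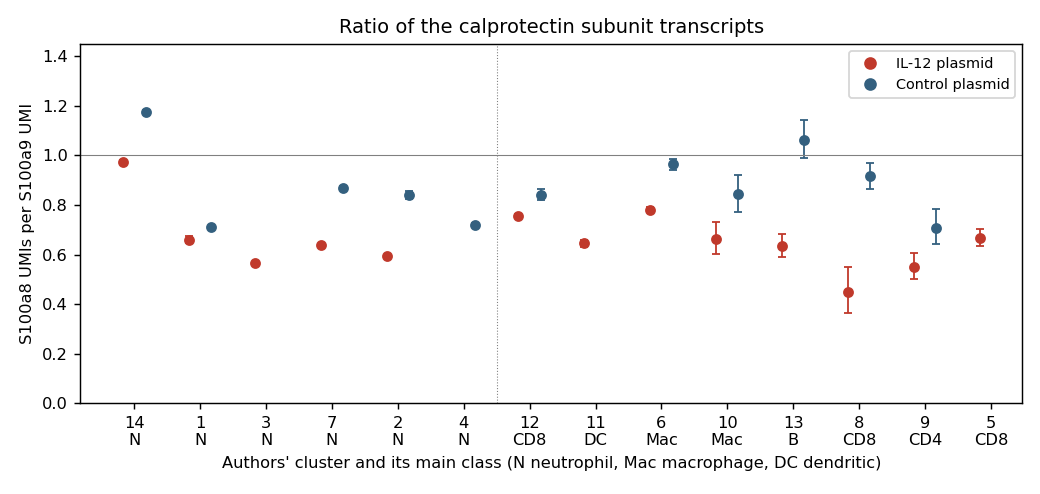
S100a8 UMIs per S100a9 UMI by cluster, IL-12 to the left of control, for groups of at least 50 cells with exact binomial intervals; the grey line marks equal counts. In all 10 clusters drawn for both libraries the IL-12 point lies under the control point, and only control clusters 14 and 13 exceed 1.

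Between treatments, both subunits were lower in the IL-12 library over all sorted cells, and S100a8 by more than S100a9. S100a8 stood at 14234 CPM in IL-12 and 29073 CPM in control cells, a ratio of 0.490 (0.488 to 0.491). S100a9 stood at 21060 CPM in IL-12 and 33329 CPM in control cells, a ratio of 0.632 (0.630 to 0.634). Of 5366 genes measured over all sorted cells, 23.2% were at least 1.5-fold lower in IL-12, as both subunits were. With each class of the IL-12 library given the share it had among control cells, the ratios were 0.667 for S100a8 and 0.868 for S100a9. The share of each class among the cells and the level within each class thus both enter the all-cell values.

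Within neutrophils the difference was smaller. S100a8 stood at 37491 CPM in IL-12 and 55346 CPM in control neutrophils, 1.48 times lower in IL-12 (1.47 to 1.48) over the deposited neutrophil class, just short of the 1.5-fold used to count genes. S100a9 stood at 56614 CPM in IL-12 and 63638 CPM in control neutrophils, a ratio of 0.890 (0.887 to 0.893). These values sit in a table where 39.5% of 3351 measured neutrophil genes were at least 1.5-fold lower in IL-12 and 10.9% higher, with a median log2 ratio of -0.39. The log2 ratios of -0.56 for S100a8 and -0.17 for S100a9 lay on either side of that median. For S100a8, 40.3% of measured genes had a lower ratio, and for S100a9 61.9%. The difference also depended on which neutrophils were set against each other. With IL-12 neutrophils weighted to the cluster shares of control neutrophils, the ratio was near even for S100a8 at 1.002, and 1.08 for S100a9. With neutrophils redefined by UMIs of Csf3r, Cxcr2, Mmp9 and Retnlg it was 0.813 for S100a8 and 1.002 for S100a9. Without cluster 14, whose share was smaller in the IL-12 library, it was 0.733 for S100a8 and 0.924 for S100a9. The weighting to control shares had few IL-12 cells to draw on in 2 clusters. Cluster 4 had 26 IL-12 and 552 control cells, and cluster 14 had 117 IL-12 and 192 control cells. Cluster 14 held 1496 S100a8 UMIs per IL-12 cell and 912 per control cell. The near even S100a8 value does not mean equal levels within clusters. The S100a8 ratio was 0.803 in cluster 1, 0.722 in cluster 2, 0.658 in cluster 7 and 1.07 in cluster 14.

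Cluster by cluster, S100a8 was at least 1.5-fold lower in IL-12 in 4 of the 10 clusters with at least 50 cells in both libraries, and S100a9 in 3. Of all measured genes in the same clusters, 13.6% were that much lower in cluster 10, 16.4% in cluster 9, 21.2% in cluster 1, 21.3% in cluster 6 and 23.9% in cluster 8. In clusters 12, 13, 14, 7 and 2 the shares were 28.3%, 28.5%, 30.8%, 34.1% and 38.8%. Cluster 7 was the only neutrophil cluster among the 4, with 30066 CPM of S100a8 in IL-12 and 45662 CPM in control cells, a ratio of 0.658 in a cluster where 34.1% of genes were that much lower. In cluster 1 the S100a8 ratio was 0.803 and in cluster 2 0.722. Cluster 14 ran the other way, with ratios of 1.07 (1.06 to 1.08) for S100a8 and 1.29 (1.28 to 1.30) for S100a9. Its cells were also deeper in the IL-12 library, with a median of 9334 UMIs against 6066 in control cells, and its median cell held 1266 S100a8 UMIs in IL-12 and 759.5 in control. The other clusters past 1.5-fold were the lymphocyte and macrophage clusters 9, 10 and 13, where both genes were near the level of traces.

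Outside neutrophils the levels of both subunits were graded. Macrophages held 3279 CPM of S100a8 in the IL-12 library and 4047 CPM in the control library, which is 8.75% of the IL-12 and 7.31% of the control neutrophil level. CD8 T cells held 4211 CPM in IL-12 and 3016 CPM in control cells, or 11.2% and 5.45% of the neutrophil level of the same library. CD4 T cells held 257 CPM in IL-12, or 0.685% of the neutrophil level, and 1169 CPM in control cells, or 2.11%. B cells held 307 CPM in IL-12, or 0.818%, and 642 CPM in control cells, or 1.16%. S100a9 followed the same pattern, from 9.85% of the neutrophil level in IL-12 CD8 T cells down to 0.810% in IL-12 CD4 T cells, and from 6.48% in control macrophages down to 1.25% in control B cells. Across classes S100a8 was at least 1.5-fold lower in IL-12 in 2 of 5, the CD4 T cells, where 16% of genes were, and the B cells, where 28.5% were. In macrophages, CD8 T cells and neutrophils, where 19.5%, 36.5% and 39.5% of genes were, it was not. S100a9 was that much lower in 1 of 5, the CD4 T cells, and 1.59-fold higher in CD8 T cells, where 11.6% of genes were at least 1.5-fold higher and where different clusters make up the class in each library.

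The other neutrophil genes stood at like percentages in these classes. In IL-12 CD4 T cells the 23 marker genes had a median of 1.36% of their neutrophil level, and 3 of them were under the 0.685% of S100a8. In control CD4 T cells the median was 1.46%, and 19 were under the 2.11% of S100a8. In IL-12 CD8 T cells the median was 11.4% and in control CD8 T cells 5.36%, both close to the value of S100a8. In IL-12 macrophages the median was 11.2% and in control macrophages 8.37%, with Slpi and other genes that macrophages also express reaching the top of the range. Both subunits lay under the median of the markers in macrophages of either library.

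**Figure D4:**
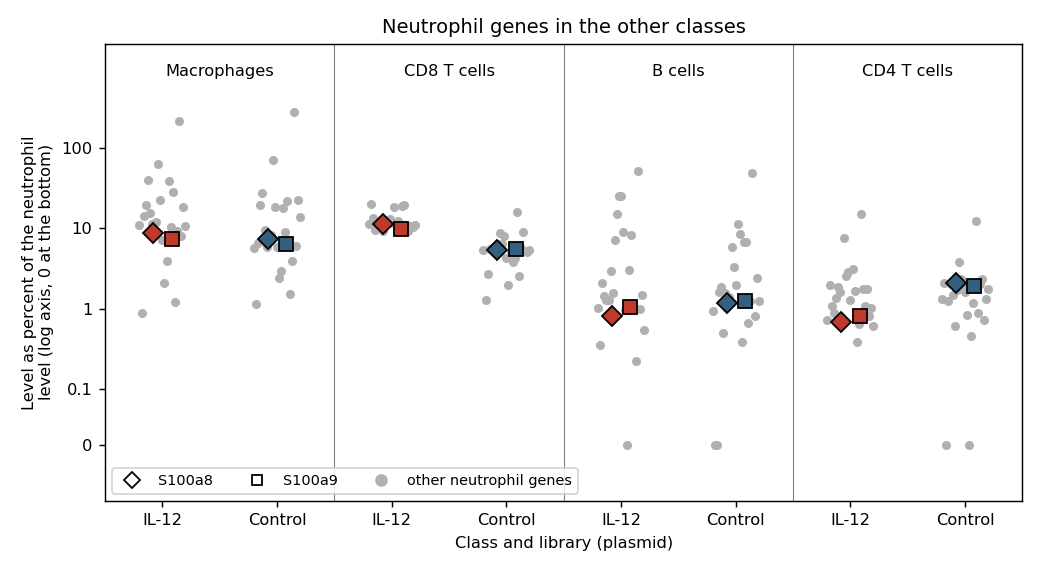
Levels in macrophages, CD8 T cells, B cells and CD4 T cells as percent of the neutrophil level of the same library on a log axis, IL-12 to the left of control, with S100a8 as diamonds, S100a9 as squares and the 23 other neutrophil genes in grey; genes without UMIs are drawn at 0. S100a8 and S100a9 lie within the range of the grey points in every class, at 11.2% of the neutrophil level or less.

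How the traces were spread over cells set the libraries apart. In the control library nearly every cell of every class held a transcript: S100a8 was found in 95.5% of CD4 T cells, 95.5% of CD8 T cells, 97.9% of B cells and 95.6% of macrophages. In the IL-12 library it was found in 42.5% of CD4 T cells, 55.9% of CD8 T cells, 39.6% of B cells and 64.7% of macrophages. With every cell thinned to 1000 UMIs, the IL-12 share was lower in each of 5 classes for both genes. For S100a8 the thinned shares were 20.1% (17.7 to 22.8) in IL-12 and 70.8% (63.5 to 77.3) in control CD4 T cells, and 11.7% (8.12 to 16.3) in IL-12 and 63.2% (52.6 to 72.8) in control B cells. In macrophages they were 39.6% (37.1 to 42.0) in IL-12 and 61.8% (57.4 to 66.2) in control cells. Neutrophils had 94.3% in IL-12 and 98.9% in control cells. Median depths before thinning were 2590 and 2784 UMIs in IL-12 and control CD4 T cells, and 7211 and 5515 in IL-12 and control macrophages. In B cells they were 6323 in IL-12 and 4376 in control. Thinning takes more from deeper cells, which in B cells and macrophages were those of the IL-12 library. Its part in their differences was not tested. The interval of the control macrophage share overlapped those of control CD4 T and B cells. In the IL-12 library the macrophage interval lay above those of CD4 T and B cells. These shares do not tell whether macrophages express the pair, which was not tested. Thinning takes more from the deeper macrophages, so no order of the classes is read from these shares. In the IL-12 library the macrophage share stood beside 20.1% in CD4 T cells and 27.4% in CD8 T cells. Thinning left out 150 IL-12 and 84 control macrophages, 30 IL-12 and 1 control CD4 T cells and 1 IL-12 B cell.

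In cells with few other neutrophil UMIs, the number of trace transcripts per cell hardly moved with depth, unlike that of neutrophils. In cells of clusters 5, 6, 8, 9, 10 and 13 with fewer than 10 UMIs of other neutrophil markers, IL-12 cells held 0.809, 0.615, 0.630 and 0.753 S100a8 UMIs each, over bins of total UMIs under 1500, 1500 to 3000, 3000 to 6000 and 6000 or more. Control cells held 3.49, 3.38, 3.47 and 3.85. The CPM of the same cells dropped with depth, to 86.9 in the deepest IL-12 bin against 742 in the shallowest, and to 472 in the deepest control bin against 3390 in the shallowest. The variance of the S100a8 count, which random counting alone would put at 1 times the mean, was 13.6, 2.95, 2.08 and 8.04 times the mean over these bins in IL-12 cells and 2.50, 1.54, 1.22 and 1.25 times in control cells. In neutrophils the count climbed steeply instead: cluster 3 IL-12 cells held 20.3, 54.2, 213 and 654 S100a8 UMIs over the same bins, the last from 9 cells. CPM comparisons of traces therefore move with depth, and the value per cell is the steadier one. Cluster 10, the shallow macrophages with a median of 1246 UMIs in IL-12 and 1190 in control cells, shows this: its median control cell held 3 S100a8 UMIs, as did that of cluster 9, yet its level of 3022 CPM was above the 1382 CPM of cluster 9. The cap of 10 was not put on the neutrophils. Without it, Spearman's rho of S100a8 UMIs with depth was 0.271 in IL-12 and 0.231 in control cluster 6. In cluster 13 it was 0.104 in IL-12 and 0.289 in control. In clusters 5, 8, 9 and 10 it ran from -0.139 to 0.114, against 0.611 in IL-12 and 0.675 in control neutrophils.

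**Figure D5:**
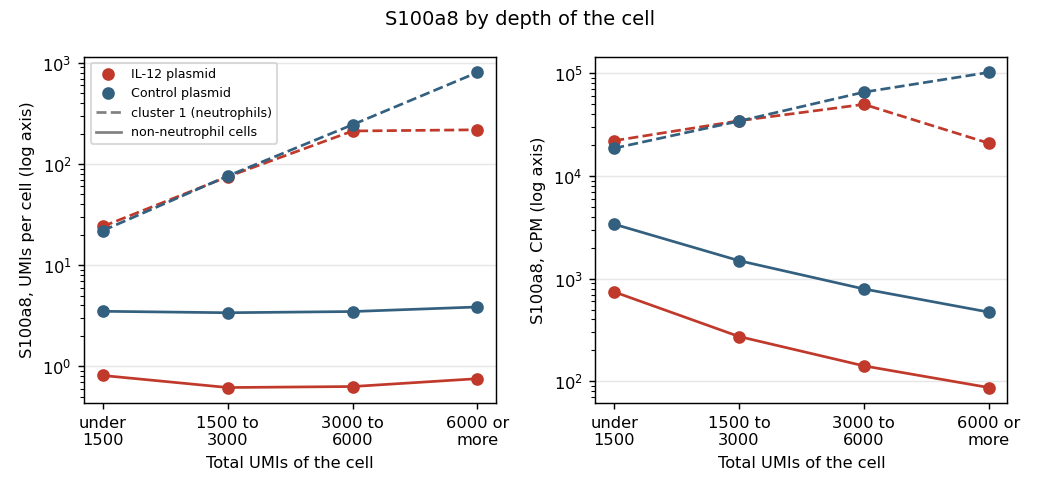
S100a8 by total UMIs of the cell as UMIs per cell (left) and CPM (right), both on log axes, for clusters 5, 6, 8, 9, 10 and 13 with fewer than 10 other neutrophil UMIs (solid) and for cluster 1 neutrophils (dashed), IL-12 in red and control in blue. The solid lines are flat at under 1 UMI in IL-12 and at 3.38 to 3.85 UMIs in control cells, while neutrophils climb; the last IL-12 point of cluster 1 holds 4 cells and the last control point 6.

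Outside the neutrophil class, cells with no UMI of any of the 23 markers still carried the pair. The 812 such cells of the IL-12 library held 0.498 S100a8 UMIs each, with a variance 1.09 times the mean, and the 113 of the control library held 2.99 each. Their S100a8 to S100a9 ratio was 0.596 (0.525 to 0.675) in IL-12 and 0.918 (0.790 to 1.07) in control cells. Both intervals include the neutrophil ratio of the same library, 0.662 in IL-12 and 0.870 in control, and neither includes that of the other library. Within the IL-12 library the ratio in marker-free cells was 0.592 in CD8 T cells, 0.615 in CD4 T cells and 0.615 in macrophages. In the control library it was 0.860 in CD8 T cells and 0.976 in macrophages, and CD4 T cells had 75 UMIs of each. The intervals of these classes overlapped in each library. Cluster 10, the shallow macrophages, supplied 96 of the 102 marker-free IL-12 macrophages and 26 of the 27 in control, so cluster 6 is barely covered. Summed over cells, cluster 6 cells with 0 UMIs of Csf3r, Cxcr2, Mmp9 and Retnlg held more S100a8 than S100a9. Their UMIs were 5082 of S100a8 and 3957 of S100a9 in IL-12, and 2570 and 1386 in control. The medians per cell were equal, 1 UMI of each gene in IL-12 and 4 of each in control. The sums thus do not describe the typical cell. The reason for the balance of the sums was not tested.

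Most of the calprotectin outside neutrophils, however, lay in a minority of cells rich in UMIs of the marker genes. Cells with 10 or more UMIs of the 23 markers were 39.2% of the IL-12 and 32.2% of the control cells outside the neutrophil class. They held 97.6% of the S100a8 UMIs there in the IL-12 library and 87.0% in the control library. The 23 markers include Slpi, at 218% of the neutrophil level in IL-12 and 282% in control macrophages. The count of 10 is therefore not one of neutrophil transcripts alone. With only Csf3r, Cxcr2, Mmp9 and Retnlg, genes of neutrophil surface receptors, a gelatinase and a resistin-like protein, the picture differed between classes. IL-12 macrophages with 0 UMIs of these 4 held a median of 1 S100a8 UMI, those with 1 or 2 a median of 2 and the 231 with 3 or more a median of 58. Control macrophages held medians of 4, 4 and 30.5 over the same bins. Cells with 3 or more held 69.1% of the S100a8 UMIs of IL-12 macrophages and 59.9% of those of control macrophages. For IL-12 CD8 T cells this share was 84.1%. In control CD8 T cells the 53 of 649 cells with 3 or more held 80.4% of the S100a8 UMIs. In cluster 13, where B cells lie, 6 IL-12 and 8 control cells with 3 or more held 62.9% of the IL-12 and 78.2% of the control S100a8 UMIs, so its level of 640 CPM in IL-12 and 2692 CPM in control cells rests on them. In CD4 T cells most S100a8 UMIs lay in cells with 0 UMIs of these 4 genes, 80.4% in IL-12 and 72.5% in control. These cells were 93.2% of the class in IL-12 and 74.9% in control. Those with 3 or more, 0.301% of the IL-12 and 1.68% of the control class, held 9.63% in IL-12 and 2.58% in control. In the B cell class cells with 3 or more held 22.2% in IL-12 and 7.78% in control, as 1.51% and 6.32% of its cells. In the IL-12 cells called dendritic they held 15.4%, as 10.5% of the cells. Whether such cells are 1 cell or 2 in a droplet was not tested.

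Clusters 12 and 11 had higher CPM of the pair than the other clusters outside the neutrophil class. By mean S100a8 UMIs per IL-12 cell, cluster 6 with 32.7 stood above cluster 11 with 13.6, while their medians were 2 and 12. Cluster 12 is called CD8 T cells, with 706 IL-12 and 54 control cells. It held 15800 CPM of S100a8 in IL-12 and 21253 CPM in control cells, or 42.1% and 38.4% of the neutrophil level, beside 42.6% and 41.4% as the median of the other neutrophil markers. Its T cell markers summed to 3638 CPM in IL-12 and 2302 CPM in control cells, and its median cell had 8039 UMIs in IL-12 and 8014 in control, against neutrophil medians of 2553 in IL-12 and 2524 in control. A T cell receptor was recorded for 549 of its 706 IL-12 cells; these held 15722 CPM of S100a8 and those without one 16139 CPM. Cluster 12 supplied 94628 of the 97519 S100a8 UMIs of IL-12 CD8 T cells and 9621 of the 11967 of control CD8 T cells. The other CD8 clusters were low, with 134 CPM in IL-12 cells of cluster 5, which holds most IL-12 CD8 cells, and 691 CPM in control cells of cluster 8, which holds most control CD8 cells. The class difference between libraries therefore sets different clusters side by side.

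Cluster 11, called dendritic cells, had 837 IL-12 and 19 control cells. Its IL-12 cells held 7128 CPM of S100a8 and 11048 CPM of S100a9, or 19.0% and 19.5% of the neutrophil level. They were unlike neutrophils in spread: the median was 12 S100a8 UMIs, the 90th percentile 25 and the highest 139. Its leading genes were histone and small RNA genes (H1f3, H1f5, Rn7s2, Rn7sk), its 5 dendritic cell markers had 24 UMIs in all with Cd209a at 0, and its T cell, macrophage and neutrophil markers summed to 2185, 2613 and 13868 CPM. The data thus go against the dendritic name, and the cells are called cluster 11 here. Cluster 6, the larger macrophage cluster, held 3484 CPM of S100a8 in IL-12 and 4430 CPM in control cells, with medians of 2 UMIs in IL-12 and 5 in control cells. Of its cells, 32.4% in IL-12 and 33.4% in control had 10 or more S100a8 UMIs.

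Of the other S100 genes, 9 of 14 listed were in the tables and 4 were measured in neutrophils, 1 of them at least 1.5-fold higher and 1 lower in IL-12, where 10.9% of all measured genes were higher and 39.5% lower. S100a6, which encodes the calcium-binding protein calcyclin, stood at 3752 CPM in IL-12 and 6894 CPM in control neutrophils, a ratio of 0.544. S100a11, which binds annexin at membranes, stood at 575 CPM in IL-12 and 275 CPM in control neutrophils, a ratio of 2.09. S100a10, the partner of annexin A2, had a ratio of 1.05 and S100a13 one of 0.799. S100a6 followed the pair in peaking in cluster 14, at 14332 CPM in IL-12 and 20584 CPM in control cells. S100a10 had the opposite distribution, with 953 CPM in IL-12 cluster 5 T cells and 9.94 CPM in IL-12 cluster 14. The 4 measured genes had a median log2 ratio of -0.13 in neutrophils, against -0.39 for all genes.

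Among receptors and adaptors of calprotectin, 5 of 9 were measured in neutrophils, 1 higher and 1 lower by at least 1.5-fold, as were 10.9% and 39.5% of all neutrophil genes. Ly96, which encodes the TLR4 partner MD-2, stood at 87.0 CPM in IL-12 and 19.4 CPM in control neutrophils, a ratio of 4.47 (3.81 to 5.28). Myd88, the adaptor below TLR4, had a ratio of 0.606, and Tlr4 itself 0.719, with 197 CPM in IL-12 and 273 CPM in control neutrophils. Cd14, the co-receptor, was abundant and close to even at 8179 CPM in IL-12 and 8998 CPM in control neutrophils. Bsg, a surface glycoprotein that S100A9 binds, had a ratio of 1.37. Ager, which encodes RAGE, had 29 UMIs in IL-12 and 25 in control neutrophils and was not measured by the rule. All 6 genes of the NADPH oxidase, the superoxide-making enzyme to which calprotectin delivers arachidonic acid, were measured, 0 higher and 1 lower, beside 10.9% and 39.5% of all genes. The lower one was Ncf1, with 153 CPM in IL-12 and 379 CPM in control neutrophils, a ratio of 0.403, while Cyba, Ncf4 and Cybb had ratios of 1.002, 0.983 and 0.990.

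Of 9 transcription factors with a part in myeloid genes, 7 were measured in neutrophils, 3 higher and 1 lower, where 10.9% of all genes were higher and 39.5% lower. Cebpd, a C/EBP factor of inflammation, stood at 218 CPM in IL-12 and 74.1 CPM in control neutrophils, a ratio of 2.95. The interferon factors Irf7 and Irf8 had ratios of 1.74 and 1.63, and Hif1a, the hypoxia factor, had 0.542. Cebpb, at 5943 CPM in IL-12 and 4995 CPM in control neutrophils, had a ratio of 1.19, and Spi1, which encodes PU.1, one of 0.952. The median log2 ratio of the 7 was 0.25, against -0.39 for all genes.

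Neutrophils make granule proteins early and inflammatory mediators late in their life, and each set was taken as a list. Of 13 early granule genes 7 were measured in neutrophils, 0 higher and 4 lower in IL-12, with a median log2 ratio of -1.03, where 10.9% of all measured genes were higher and 39.5% lower with a median of -0.39. The lean rests on the filter for measured genes: the 11 members with at least 3 UMIs over both libraries had 2 higher, the same 4 lower and a median of -0.24. The lower ones were Chil3 at 0.0856, Mmp8 at 0.221, Cd177 at 0.311 and Lcn2 at 0.489 of the control level. Ngp and Ltf had ratios of 0.845 and 1.23. Camp, with UMIs in too few cells to count as measured, stood at 480 CPM in IL-12 and 194 CPM in control neutrophils. Of 13 late genes 12 were measured, 9 higher and 2 lower, with a median of 1.01, beside the same 10.9% and 39.5% of all genes. Among the 9, the chemokine genes Cxcl2, Ccl3 and Ccl4 had ratios of 1.71, 2.34 and 3.02, the cytokine genes Il1b and Tnf 1.58 and 4.59, Icam1 3.09, Ccrl2 2.99 and the metabolite receptor gene Hcar2 3.95, while Vegfa and Csf1 had 0.514 and 0.646. In cluster 2, where 8.53% of all genes were at least 1.5-fold higher and 38.8% lower, the early genes were 0 higher and 6 lower of 6 measured. In cluster 14, where 13.9% of all genes were higher and 30.8% lower, 4 of 8 were higher and 2 lower.

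Of the 23 marker genes used beside the pair, 22 were measured in neutrophils, 3 higher and 9 lower in IL-12, shares near the 10.9% and 39.5% of all neutrophil genes. Retnlg stood at 1509 CPM in IL-12 and 4906 CPM in control neutrophils, a ratio of 0.308. Mmp9, Wfdc21 and Cxcr2 had ratios of 0.343, 0.372 and 0.428, and G0s2 and Clec4d 1.26 and 1.70. The S100a8 ratio of 0.677 and the S100a9 ratio of 0.890 lay between these. In cluster 9 lymphocytes, where the S100a8 ratio was 0.187 (0.168 to 0.208) and the S100a9 ratio 0.241 (0.221 to 0.262), Retnlg had 0.170, Lcn2 0.292 and G0s2 0.363, while Il1b had 1.22 and Mxd1 0.997. A few control cells weigh on the S100a9 value, since 5 of 179 with 3 or more UMIs of the 4 neutrophil genes held 40.8% of its S100a9 UMIs, and over the CD4 T cell class the ratios were 0.220 for S100a8 and 0.373 for S100a9. Of the 4667 genes measured in cluster 9, 16.4% were at least 1.5-fold lower in IL-12, and 0.0429% had a ratio lower than that of S100a8.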

How the data were processed

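The authors deposited, for each of 2 expression libraries, a table of cells by 11407 genes holding log2 of counts per 1000000 plus 1, with cluster, class and receptor columns; this log2 scale was read from the values. Cell Ranger 2.1.0, STAR 2.6.1, Partek and the mm10 genome are named per the submitters' processing notes; filters on cells are not given in the sources used here. UMIs were recovered by undoing the logarithm and taking a cell's smallest value above 0 as 1 UMI. They were whole within 0.1 for all but 13 IL-12 and 6 control values. The total of a cell follows from that value, and the table's genes held 70.4% of IL-12 and 72.9% of control UMIs.

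Libraries were grouped by the treatment label, and the receptor libraries were not used beyond the receptor column. With 1 library per treatment no test was made. Levels have exact Poisson, shares exact binomial and ratios exact conditional 95% intervals, from Python 3.11.15 with scipy 1.17.1; recovery and intervals were tested on simulated data. Genes counted as measured had 50 or more UMIs in the libraries together and were seen in 5% or more of the cells in at least 1 library. Log2 ratios carry a pseudocount of 1 CPM. The graph-based clusters are those of the authors and rest on expression, which may include that of the pair, so levels by cluster are descriptions. No doublet caller was run; leaving out cells with both Cd3e and Csf3r was an alternative. The genes named are the pair, the 5 genes most like each, up to 4 members of each list with the most UMIs and members past 2-fold in neutrophils. Other members named, and the clusters and bins of the depth comparison, were chosen after their values were seen. Both subunits and all lists were chosen with earlier results of these data known.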

Additional observations from a re-analysis of the deposited data

Results flagged for a closer look

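In 3 clusters a subunit differed between libraries in the direction opposite to that of the neutrophil class, where both were lower in IL-12. In cluster 14 the IL-12 level over the control level was 1.07 for S100a8 and 1.29 for S100a9. In cluster 2 it was 1.02 for S100a9, which turned to 0.978 over the UMIs of the table's genes and as a mean over cells. In cluster 8, with 67 IL-12 and 572 control cells, it was 1.39 for S100a9. Per cell, the cluster 8 mean was 4.49 S100a9 UMIs in IL-12 and 4.39 in control. The median was lower in IL-12, with 1 S100a9 UMI against 4 in control. The difference between these clusters and the class was not tested, as each library is 1 pool of mice. In cluster 8, 6 of the 67 IL-12 cells had UMIs of Csf3r, Cxcr2, Mmp9 or Retnlg. They held 43.5% of its S100a9 and 43.7% of its S100a8 UMIs, and their part in the result was not tested.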

How the results depend on the processing

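Of 308 alternative values for single classes, clusters and lists, 155 stayed within the counting interval or within 1.5 times a count, 147 moved and 6 turned direction. The last were S100a8 in cluster 8 (1.08 as a mean over cells), S100a9 in macrophages (0.981 over the UMIs of the table's genes, 0.727 as a mean over cells and 0.944 without cells holding both Cd3e and Csf3r) and S100a9 in cluster 2 (0.978 over the table's genes and 0.978 as a mean over cells). In neutrophils the IL-12 to control ratio of S100a8 was 0.669 over the table's genes, 0.659 without the pair in the total and 0.699 as a mean over cells. It was 0.813 with a marker class, 0.733 without cluster 14 (an alternative added after seeing the data) and near even at 1.002 with control cluster shares. That of S100a9 was 0.878, 0.865, 0.905 and 0.924 for the table's genes, the reduced total, the mean over cells and no cluster 14. It was near even at 1.002 with the marker class and turned to 1.08 with control cluster shares. Over all sorted cells, in the order table's genes, reduced total, mean over cells, no Cd3e and Csf3r cells and control class shares, S100a8 had 0.507, 0.476, 0.535, 0.475 and 0.667, and S100a9 0.655, 0.614, 0.685, 0.619 and 0.868. The number of classes in which S100a9 was at least 1.5-fold lower was 2 as a mean over cells. The level in the highest other class with at least 50 cells in both libraries, which leaves out the cells called dendritic, was also taken as percent of the neutrophil level: for S100a8 in IL-12 it was 15.1 over the table's genes, 10.3 with the reduced total, 10.7 as a mean over cells, 8.09 without Cd3e and Csf3r cells, 8.75 without cluster 12 and 0.911 in marker-free cells, and for S100a9 13.2, 9.01, 8.84, 6.66, 7.45 and 0.980. In control cells S100a8 had 8.63, 6.49, 9.47 and, in marker-free cells, 4.44, and S100a9 7.64, 5.76, 7.97 and 3.96, with 6.34 in cells of at least 1000 UMIs and 6.27 without Cd3e and Csf3r cells. The causes of these shifts were not tested. No paired analysis was possible because each treatment has 1 library.

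Depth limits the traces: IL-12 cells of clusters 5 and 9 hold on average under 1 S100a8 UMI each, so single cells cannot be called positive or negative. The cells of 1 library share its mice and its capture, and no interval here covers differences between mice.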

Other observations

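Groups under 50 cells were left out of the comparisons by single class and cluster. The control library had 21 cells in cluster 5, and the 10 without a recorded T cell receptor held 31970 CPM of S100a8 while the 11 with one held 483 CPM. Its 19 cells of cluster 11 held 31952 CPM of S100a8 and 38393 CPM of S100a9, and its 27 cells of cluster 3 held 25017 and 38797 CPM. The 26 IL-12 cells of cluster 4 held 8392 CPM of S100a8 and 12342 CPM of S100a9. A receptor was recorded in 9 IL-12 and 1 control cells called neutrophils, whose S100a8 levels were 28055 CPM in IL-12 and 25016 CPM in the control cell. Among IL-12 macrophages, the 174 with a receptor held 2155 CPM of S100a8 and the 1528 without one 3492 CPM, and their median depths were 11653 and 6380 UMIs.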
